A study of Mus musculus with 16 samples.

Results

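Calcium rests in the neuron at a very low cytosolic level and at a high level outside the cell and inside the endoplasmic reticulum, its main internal store. Ryanodine receptors (Ryr genes) and inositol 1,4,5-trisphosphate (IP3) receptors (Itpr genes) are the channels that let calcium out of the store, the SERCA pump (Atp2a2) refills it, and the plasma membrane calcium ATPases (PMCA, Atp2b genes) and the sodium/calcium exchanger NCX1 (Slc8a1) carry calcium out of the cell. The 9 genes described here are these channels, pumps and the exchanger: Ryr2, Ryr3, Itpr1, Itpr2, Atp2a2, Atp2b1, Atp2b2, Atp2b4 and Slc8a1. They were listed by name out of the 19999 genes counted, with earlier results of these data known. Their counts were followed over rebuilt cell types and over the 4 groups of mice.

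Single nuclei were sequenced from the prefrontal cortex (medial part) of 16 male mice, 4 in each group, aged 22 weeks in the labels. The WT groups were of strain B6;129, and the 3xTg-AD groups carried the human APP transgene with the Swedish mutation, the human tau transgene with P301L and a knock-in allele, on the same background. The WT alcohol and 3xTg-AD alcohol groups received ethanol and pyrazole (an inhibitor of alcohol dehydrogenase) by injection followed by intermittent ethanol vapor, whereas the WT control and 3xTg-AD control groups received pyrazole and air. The authors took the cortex after behavioral testing and days after the last vapor exposure. The APP and tau transgenes are driven by a Thy1 promoter, which is active in neurons.

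The table held 114512 nuclei, 4955 to 9096 per mouse, with 9622031 to 17544364 unique molecular identifiers (UMIs) per mouse. Cell types were rebuilt by clustering and named from markers, so each name below means nuclei like that type; 70483 nuclei received a name, 53.2% to 75.4% in each mouse, and 44029 did not. The named nuclei had a median of 2082 UMIs and the unnamed ones 889. All 9 astrocyte markers, all 9 oligodendrocyte markers and all 10 microglia markers were highest in their own type, but none of the 5 L4/5 IT markers was highest in the nuclei given that name, 1 of 6 was for L5 ET, and 2 of 6 were for each of L6 IT, L5 IT and L2/3 IT, so the layer names are weak. Of 112806 distinct barcodes, 1694 occurred in more than 1 library. Gm42418, a transcript that collects ribosomal RNA reads, stood at 17914 to 29046 CPM (counts scaled to the library total) in WT control mice 26 and 27 and 3xTg-AD control mouse 12, and at 2059 to 4249.5 CPM in the other 13 mice. Named calls of the members and of the other calcium genes that did not pass without these 3 libraries are given with and without them. Their removal leaves WT control mice 28 and 36 and 3xTg-AD control mice 13, 14 and 21. A call can therefore also be lost there to fewer mice.

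Levels below are CPM of the counts summed over a mouse's nuclei of one type, as mean ± SD over 16 mice unless a group is named. They compare types for one gene and never one gene with another, because 3' counts were not scaled to gene length. The levels across types are a description without a test. RNA of neurons was counted in the non-neuronal nuclei too. Slc17a7, the vesicular glutamate transporter of excitatory neurons, stood in astrocytes at 0.447 of its mean over the 7 glutamatergic types, and in microglia at 0.636. Camk2a, a kinase of excitatory neurons, stood at 1.61 times its glutamatergic mean in astrocytes and 1.15 times in microglia. A member whose ratio lies at or below these values cannot be told from neuronal RNA carried into glial droplets.

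The ryanodine receptors were highest in glutamatergic types and were also counted in interneurons. Ryr2, the ryanodine receptor also found in heart muscle, was at 742 ± 102 CPM in L5/6 NP neurons, 617 ± 70.4 in L2/3 IT and 589.6 ± 53.1 in L6 CT. Its level in L5 IT, 520.1 ± 59.0, exceeded the next type, Sst interneurons at 384 ± 58.3, by 1.36-fold, a gap wider than the SDs of both. L5 ET, at 316 ± 43.2, was the lowest glutamatergic type and lay below Sst. Ryr2 was lowest in astrocytes, at 74.4 ± 13.5 CPM, and its astrocyte and microglia ratios to the glutamatergic mean, 0.135 and 0.175, were under those of Slc17a7. These glial levels cannot be told from neuronal RNA counted there. Ryr3, the least abundant ryanodine receptor type in most adult tissues, was highest in L5 ET (136 ± 30.6 CPM) and L6 CT (129 ± 38.6), which did not differ beyond their SDs. Its levels were 79.7 CPM in L6 IT and 74.5 in Vip interneurons, but 3.58 ± 2.69 in astrocytes. L4/5 IT, at 23.7 CPM, lay below Vip, oligodendrocyte precursor cells (42.3) and Sst (27.2), all of them below the filter on low counts for Ryr3. The highest type of Ryr3, L5 ET, was the lowest glutamatergic type of Ryr2, and the highest type of Ryr2, L5/6 NP, was at 61.5 ± 19.9 CPM for Ryr3. Across the 17 types their mean log2 CPM correlated at 0.70 (the types share libraries and free RNA).

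The IP3 receptors divided between types. Itpr1, the principal IP3 receptor of neurons, was spread widely, from 300.1 ± 42.5 CPM in L6 CT to 102.5 ± 24.3 in Vip, and no neighbours in this order differed beyond their SDs. Among interneurons it was at 261 CPM in Lamp5 and 242 in Pvalb, but at 121 ± 37.1 in Sst and 110.4 ± 52.0 in Sncg. Its mean was 234 CPM over the glutamatergic types, 167 over the 5 GABAergic types and 474 in the nuclei without a type, 2.02 times the glutamatergic mean, where Camk2a stood at 3.31 times its own. Its ratios to the glutamatergic mean in astrocytes (0.924), microglia (1.02) and endothelial nuclei (1.15) were above those of Slc17a7 but not above those of Camk2a. Itpr2, the receptor known for calcium release in astrocytes, was the opposite case. It was at 292 ± 81.0 CPM in oligodendrocyte precursor cells (OPC), 2.07-fold above the next type and beyond their SDs. Microglia followed at 141 ± 46.3 CPM, astrocytes at 96.4 ± 20.9 and endothelial nuclei at 90.1 (a type below the filter for Itpr2), whereas the glutamatergic types were at 1.21 to 2.30. Itpr2 was 58.8 times its glutamatergic mean in astrocytes and 86.1 times in microglia, far above any ratio of the neuronal genes, and it was the only member above the Camk2a ratio in either type. Across types, Ryr2 and Itpr2 correlated at -0.92. Itpr2 passed the filter on low counts in only 3 types, so this value includes many types near its floor.

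**Figure D1:**
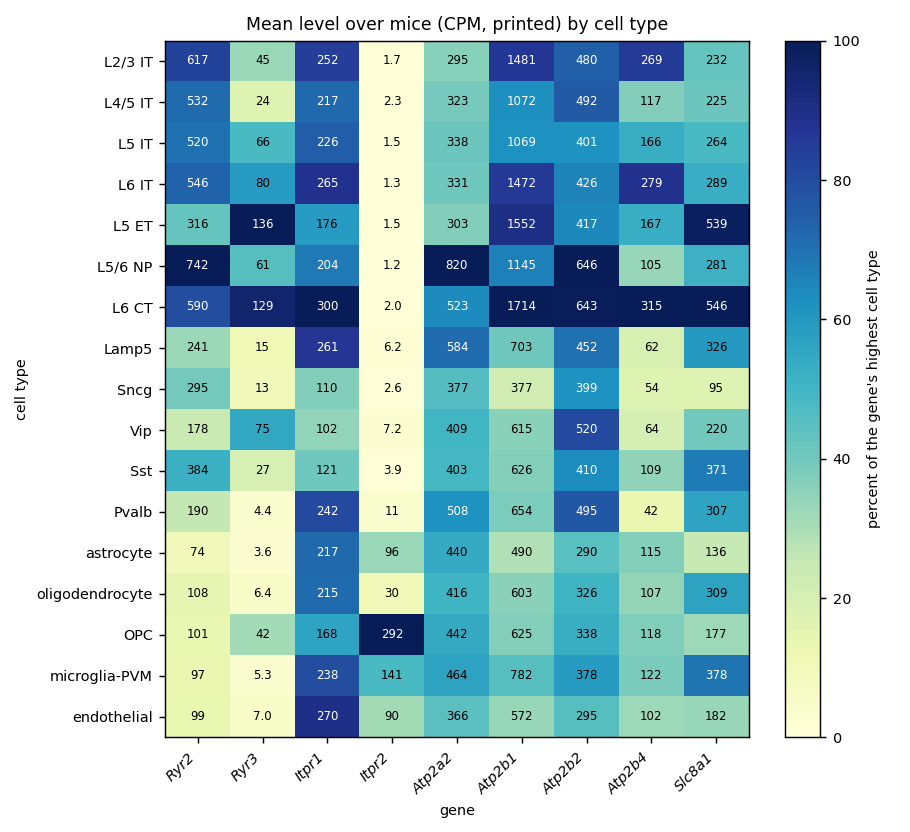
Mean CPM over 16 mice of each member (columns) in 17 cell types (rows), with the colour giving the percent of that gene's highest type; levels are comparable down a column, not across it. Ryr2, Atp2b1 and Atp2b4 are darkest in the glutamatergic types, Ryr3 in L5 ET and L6 CT and Itpr2 in OPC (292 CPM). Itpr1, Atp2a2 and Atp2b2 are spread over all types.

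The store pump was less selective. Atp2a2, which encodes SERCA2, was at 820.1 ± 149 CPM in L5/6 NP and 584 ± 111 in Lamp5 and lowest in L2/3 IT at 295 ± 42.8. Its mean was 419 CPM over glutamatergic and 456 over GABAergic types. L5/6 NP neurons thus had the highest level of both Ryr2 and Atp2a2.

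The plasma membrane pumps separated the excitatory neurons from the rest to different degrees, and Atp2b4 did so only in part. Atp2b1 (PMCA1), the widely expressed form, was at 1714 ± 203 CPM in L6 CT, 1552 in L5 ET, 1481 in L2/3 IT and 1472 ± 141 in L6 IT, the last of which was 1.29-fold above L5/6 NP (1145 ± 92.2) and beyond both SDs. L5 IT, at 1069 ± 83.7 CPM, was the lowest glutamatergic type and stood 1.37-fold above microglia (782 ± 152), again beyond both SDs. Atp2b4 (PMCA4) was at 315 ± 57.9 CPM in L6 CT and 269 ± 48.7 in L2/3 IT, 1.60-fold above L5 ET (167 ± 36.4) and beyond both SDs, and it was lowest in Pvalb interneurons at 41.5 ± 11.7. Atp2b1 and Atp2b4 correlated at 0.78 across types. Atp2b2 (PMCA2), a fast pump of neurons and cochlear hair cells, varied least of the 3, from 646 ± 157 CPM in L5/6 NP and 643 ± 138 in L6 CT to 290.1 ± 91.9 in astrocytes. The first 2 types cannot be ordered, since L6 CT was the higher without some single mice, WT control mouse 26 among them. In astrocytes the 3 PMCA genes were at 0.361 (Atp2b1), 0.580 (Atp2b2) and 0.566 (Atp2b4) of their glutamatergic means, below the Camk2a ratio.

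The exchanger had an order of its own. Slc8a1 was highest in L6 CT (546 ± 69.6 CPM) and L5 ET (539 ± 69.3), followed by microglia (378 ± 98.4) and Sst interneurons (371 ± 69.5). It was lowest in astrocytes (136 ± 23.9) and Sncg interneurons (94.7 ± 35.6). L2/3 IT neurons, high in Atp2b1 and Atp2b4, were at only 232 CPM for Slc8a1.

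For each member, the 3 genes whose mean log2 CPM followed it most closely over the 17 types were found among 11751 genes. Ryr2 was close to Gm44644 (Pearson's r 0.96) and Otud4 (0.95). Ryr3 was closest to Macrod2 (0.89), Cacna1e (0.88), a voltage-gated calcium channel subunit, and Nucb2 (0.88). Itpr1 had no close match, with Dyrk2 at 0.77, Cep112 at 0.71 and Prickle1 at 0.71, whereas Itpr2 was matched by Tmem176b (0.97), Sdf2 (0.96) and Tcf7l2 (0.96). Atp2a2 was closest to Fra10ac1 (0.91), Ip6k1 (0.87) and Scn2b (0.82), a sodium channel subunit. Atp2b1 was closest to Celf2 (0.94), Syt7 (0.93) and Adcy9 (0.93), Atp2b2 to Clvs2 (0.93), Vopp1 (0.92) and Prrt3 (0.91), and Atp2b4 to Zfp831 (0.89), Icam5 (0.87) and Nab2 (0.86). Slc8a1, like Itpr1, had weaker matches in Nos1ap (0.79), Mctp1 (0.79) and Klhdc1 (0.77). These are correlations over types that share libraries, and the closest of so many genes is high by selection. Those of Itpr2 also include many types where it was near the floor.

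The members are long genes spread over the genome (GRCm38). Ryr2 spans chr13:11553102-12106945 (553.8 kb) and Ryr3 chr2:112631355-113217096 (585.7 kb), and Aven lies within the Ryr3 region on the other strand. Itpr1 is at chr6:108213096-108551109, Itpr2 at chr6:146108299-146502223 and Atp2b2 at chr6:113743831-114042613, where Gm44167 overlaps on the same strand and Gm15082 on the other. Itpr1 and Atp2b2 thus lie 5.19 Mb apart on chromosome 6. Atp2a2 is the shortest, at chr5:122453513-122502225 (48.7 kb). Atp2b1 is at chr10:98914406-99026143, Atp2b4 at chr1:133699457-133801041 and Slc8a1 at chr17:81373105-81738377. Each span is a whole gene, exons and introns, in the GENCODE annotation.

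Whether alcohol, the 3xTg-AD genotype or both altered these genes was tested in each type on counts summed per mouse, with edgeR's quasi-likelihood test and Benjamini-Hochberg adjustment over all genes of the type. A call is an adjusted p of at most 0.05. Of 153 pairs of member and type, 123 passed the filter on low counts. Itpr2 passed in astrocytes, OPC and microglia, Ryr3 in the 7 glutamatergic types, and Itpr1, Atp2a2, Atp2b1 and Atp2b2 in all 17. Ryr2 lacked endothelial nuclei, Slc8a1 lacked Sncg, and Atp2b4 lacked Lamp5, Sncg, Vip and endothelial nuclei.

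In the 3xTg-AD alcohol group against WT controls, 5 of the 123 tests passed, all lower: Itpr1 in Sst interneurons and in astrocytes, Atp2b2 in astrocytes, and Ryr2 and Itpr2 in microglia. That is 4.07% of the members' tests, against 1.22% of all 116428 tests (0.733% lower). Below zero were 100 of the 123 log2 fold changes (81.3%), with a median of -0.19, compared with 50.4% and a median of 0.00 over all genes. An unadjusted p under 0.05 was reached by 29 tests (23.6%), 27 of them lower, against 12.6% of all tests. Without WT control mouse 26, one of the libraries high in Gm42418, 13 of 125 tests reached it, with 99 below zero and a median of -0.14. Without all 3 such libraries 15 of 127 did, with 88 below zero and a median of -0.13. The shares over all genes in these reduced fits are not given here. The groups did not overlap in 14 tests (11.4%), 11 of them lower (8.94%), against 6.51% and 3.45% over all genes. The members were chosen with earlier results of these data known, so these shares describe the set and are not evidence about it. Tests of one gene in several types share the same mice and are not independent.

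**Figure D2:**
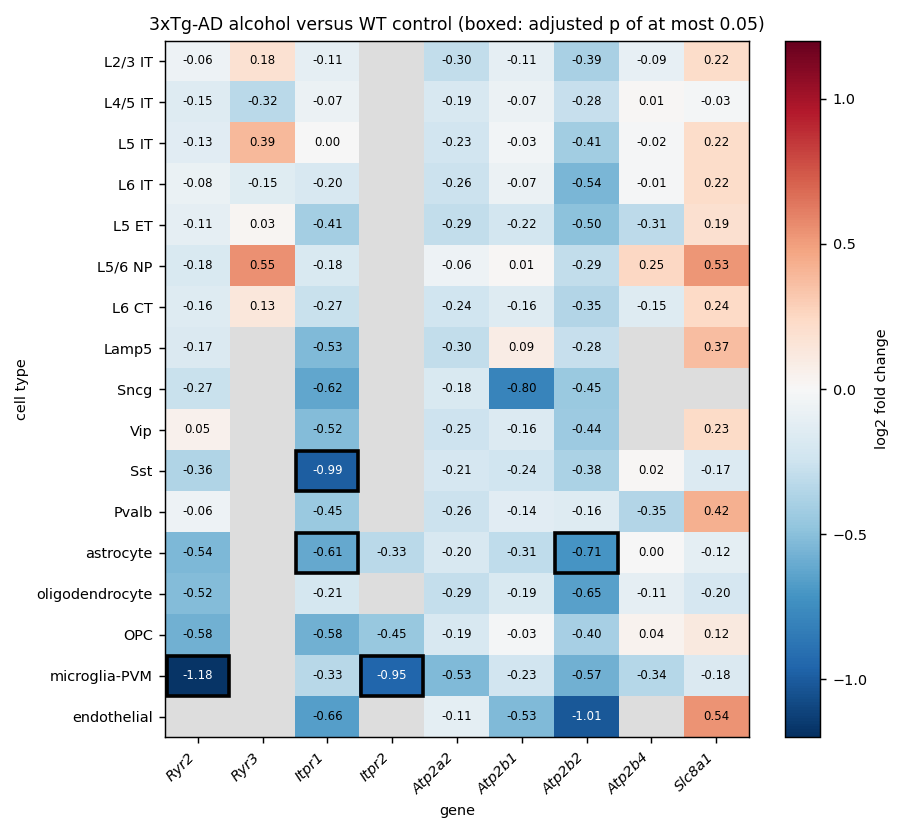
Log2 fold change of each member (columns) in each cell type (rows) for the 3xTg-AD alcohol group against WT controls, 4 mice each; boxes mark an adjusted p of at most 0.05 and grey squares tests that did not pass the filter. Itpr1, Atp2b2 and Atp2a2 are at or below zero in all 17 types, and Slc8a1 is above zero in 11 of 16. Without WT control mouse 26, Atp2b2 is below zero in 15 of 17, Itpr1 and Atp2a2 in 16 of 17.

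With all 16 mice, the members fell into those with values below zero across types and those without. Itpr1 was at or below zero in 17 of 17 types (median -0.41), with 6 unadjusted p under 0.05, and Atp2b2 in 17 of 17 (median -0.41), with 12. Atp2a2 was also below zero in 17 of 17, but with a median of -0.24 and 2 unadjusted p under 0.05. Atp2b1 (15 of 17) and Ryr2 (15 of 16) had smaller medians of -0.16. Itpr2 was tested in 3 types, all below zero (median -0.45), with 2 unadjusted p under 0.05. In contrast, Atp2b4 was below zero in 9 of 13 types with a median of -0.02, Ryr3 in 2 of 7 with a median of 0.13, and Slc8a1 in 5 of 16 with a median of 0.22.

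For Itpr1, Itpr2, Atp2a2, Atp2b1 and Atp2b2, the size of this pattern rested in large part on WT control mouse 26. Ryr2 did not shrink without this mouse, below zero in 15 of 16 types with a median of -0.25. The medians of Atp2b1 and Itpr2 were then -0.05 and -0.15. Without mouse 26, Atp2b2 was below zero in 15 of 17 types, with a median of -0.24 and 3 unadjusted p under 0.05. In Lamp5 it turned from -0.28 to 0.14 and in Pvalb from -0.16 to 0.06, and in L5 IT it went from -0.41 to -0.16. Itpr1 was below zero in 16 of 17 types without this mouse (median -0.19) and Atp2a2 in 16 of 17 (median -0.12, 0 unadjusted p under 0.05). Ryr3 changed sides, below zero in 6 of 8 types (median -0.16), and Atp2b4 was below zero in 12 of 13 (median -0.22), whereas Slc8a1 was above zero in 14 of 17 (median 0.26). Without all 3 libraries high in Gm42418, the medians were -0.29 for Itpr1, -0.16 for Atp2b2 (1 unadjusted p under 0.05), 0.01 for Atp2b1 and 0.32 for Slc8a1.

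Itpr1 in Sst interneurons had the smallest adjusted p. WT control mice 28, 27, 26 and 36 were at 139.8, 150.5, 190.1 and 192 CPM, and WT alcohol mice 17, 6, 18 and 7 at 90.3, 106, 123 and 132. The 3xTg-AD control mice 13, 12, 14 and 21 were at 89.4, 101, 123 and 157 CPM, and 3xTg-AD alcohol mice 33, 31, 34 and 4 at 72.9, 77.1, 92.6 and 95.5. Every 3xTg-AD mouse exposed to alcohol was below every WT control, and so was every WT mouse exposed to alcohol. The level was 0.504 of that in WT controls (log2 fold change -0.99, SE 0.22, adjusted p = 0.00677), against 0.735% of genes called in Sst. These values rest on few molecules, 17 to 56 Itpr1 UMIs per mouse. Either factor alone gave a smaller value that did not pass, -0.52 for 3xTg-AD controls against WT controls (adjusted p = 0.726) and -0.62 for the WT alcohol group against WT controls (adjusted p = 0.281). These comparisons share the WT controls. Averaged over genotype, alcohol gave -0.54 (adjusted p = 0.0791), and the interaction was 0.15 (adjusted p = 0.999).

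The Sst call held without the 3 libraries high in Gm42418 (-0.99, adjusted p = 0.0295) and with DESeq2 (adjusted p = 0.0182), but not without WT control mouse 36 (-0.90, adjusted p = 0.0522). The summed CPM of Slc17a7 and Camk2a in Sst nuclei was 472 to 645 in WT controls and 372 to 449 in the 3xTg-AD alcohol group, so these markers of excitatory neurons moved with the group, though neither gene was called. With that sum as a covariate, the value was -0.94 (adjusted p = 0.185). The Sst level of Itpr1 was 0.516 of the glutamatergic mean, below the mean Camk2a ratio of GABAergic types (0.624), and the part of free RNA in the difference was not tested further. Within the 2 clusters of Sst nuclei, the values were -1.40 (adjusted p = 0.0116) in the smaller one of 769 nuclei and -0.70 (adjusted p = 0.322) in the other of 1066.

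Itpr1 and Atp2b2 were called lower in the astrocyte nuclei. For Itpr1, WT control mice 27, 28, 26 and 36 were at 171, 258, 290.2 and 329.9 CPM, and WT alcohol mice 18, 17, 7 and 6 at 183, 204, 234 and 302. The 3xTg-AD control mice 13, 12, 21 and 14 were at 178, 184, 211 and 228 CPM, and 3xTg-AD alcohol mice 34, 4, 31 and 33 at 153, 168, 179 and 191. Mouse 27 was far below the other WT controls, so the groups overlapped, with 2 of 4 mice of the 3xTg-AD alcohol group below all WT controls. The log2 fold change was -0.61 (SE 0.16, adjusted p = 0.0446), close to the threshold, where 1.1% of genes were called. It did not pass with DESeq2 (adjusted p = 0.0791), without WT control mouse 36 (-0.48, adjusted p = 0.2065), 26 or 28, without any one of the 3xTg-AD alcohol mice, or without 3xTg-AD control mouse 13 or 21 or WT alcohol mouse 7, and it passed without the 3 libraries high in Gm42418 (-0.76, adjusted p = 0.0197). For 3xTg-AD controls against WT controls the value was -0.41 (adjusted p = 0.606), and for the WT alcohol group -0.21 (adjusted p = 0.725).

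For Atp2b2 in astrocytes, WT control mice 28, 36, 27 and 26 were at 274, 283, 368 and 595 CPM, and WT alcohol mice 18, 7, 17 and 6 at 234, 256, 273 and 360.0. The 3xTg-AD control mice 13, 21, 12 and 14 were at 242, 269, 273 and 283 CPM, and 3xTg-AD alcohol mice 33, 4, 31 and 34 at 194, 238, 246 and 254. The groups compared did not overlap, but WT control mouse 26 was far above the rest. The log2 fold change was -0.71 (SE 0.17, adjusted p = 0.0344). Without mouse 26 it was -0.40 (adjusted p = 0.343), and without the 3 libraries high in Gm42418 it was -0.25 (adjusted p = 0.632), so the call rests on that library. It also did not pass without WT control mouse 27 (adjusted p = 0.0544) or without 3xTg-AD alcohol mouse 31, 33 or 4.

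Markers of neurons and microglia in the astrocyte nuclei were compared in the same groups. Itpr1 and Atp2b2 both stood in astrocytes below the Camk2a ratio, so a difference in the astrocytes themselves cannot be told from one in neuronal RNA counted there. None of the 9 astrocyte markers was called. The summed CPM of Slc17a7 and Camk2a was 961 to 1935 in WT controls and 969 to 1671 in the 3xTg-AD alcohol group. With this sum as a covariate, Itpr1 was at -0.43 (adjusted p = 0.146) and Atp2b2 at -0.67 (adjusted p = 0.0557). The summed CPM of the 3 GABAergic markers (Gad1, Gad2 and Slc32a1) was 168 to 258 in WT controls, 141 to 207 in the WT alcohol group, 122 to 146 in 3xTg-AD controls and 99.0 to 162 in the 3xTg-AD alcohol group. These neuronal markers did not overlap between the 3xTg-AD alcohol group and WT controls, all 3 were below zero and none was called, with Gad1 at -0.79 (adjusted p = 0.0838). They moved with Itpr1 and Atp2b2, and their part in those results was not tested. The summed microglia markers were 86.8 to 174 CPM in WT controls and 179 to 245 in the 3xTg-AD alcohol group, with C1qa, a complement gene of microglia, called at 1.11 (adjusted p = 0.0381). Its part in the results was not tested. Among the 5 astrocyte clusters, Itpr1 passed in 1 (-0.96, adjusted p = 0.0108) and ranged from -0.77 to -0.11 in the others, while Atp2b2 passed in 2 (-0.91, adjusted p = 0.0108, and -0.93, adjusted p = 0.0157) and ranged from -0.76 to -0.21 in the others, of which the cluster at -0.21 held 1918 nuclei.

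The release channels Ryr2 and Itpr2 were called lower in the microglial nuclei, on few molecules and not under every alternative. For Ryr2, WT control mice 27, 28, 36 and 26 were at 116, 117, 137 and 201 CPM, and WT alcohol mice 7, 17, 6 and 18 at 80.1, 86.3, 126 and 143. The 3xTg-AD control mice 13, 21, 14 and 12 were at 41.1, 55.0, 84.6 and 99.9 CPM, and 3xTg-AD alcohol mice 34, 4, 33 and 31 at 35.9, 69.3, 69.7 and 83.8. Both 3xTg-AD groups were below every WT control. The log2 fold change was -1.18 (SE 0.30, adjusted p = 0.0231), and for 3xTg-AD versus WT mice averaged over treatment it was -0.92 (SE 0.22, adjusted p = 0.00765). Among microglia genes, 1.45% and 1.31% were called in these comparisons. Each mouse gave only 4 to 24 Ryr2 UMIs in microglia, at a level that cannot be told from neuronal RNA counted there, so these values do not show a difference in the microglia themselves.

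For Itpr2, WT control mice 28, 36, 27 and 26 were at 137, 181, 216 and 235 CPM, and WT alcohol mice 17, 18, 6 and 7 at 96.4, 143, 149.9 and 160.1. The 3xTg-AD control mice 21, 14, 13 and 12 were at 79.5, 117, 148 and 192 CPM, and 3xTg-AD alcohol mice 31, 34, 33 and 4 at 87.4, 98.7, 109 and 109.8. The 3xTg-AD alcohol group were all below the WT controls, whereas the other groups overlapped them. The log2 fold change was -0.95 (SE 0.27, adjusted p = 0.0430), on 7 to 28 UMIs per mouse. The Itpr2 call did not pass without any one of the 3xTg-AD alcohol mice or without WT control mouse 26, 27 or 36. Without WT control mouse 26 the values were -0.85 (adjusted p = 0.260) for Itpr2 and -0.96 (adjusted p = 0.276) for Ryr2, and without 3xTg-AD alcohol mouse 34 Ryr2 was at -0.98 (adjusted p = 0.1205). DESeq2 gave adjusted p = 0.1785 for Itpr2 and adjusted p = 0.138 for Ryr2. Without the 3 libraries high in Gm42418 neither passed (Itpr2 -0.74, adjusted p = 0.509; Ryr2 -1.01, adjusted p = 0.3275), but Ryr2 averaged over treatment did (-0.94, adjusted p = 0.0450). The latter did not pass without WT control mouse 26 (-0.82, adjusted p = 0.0595), with Gm42418 as a covariate (-0.79, adjusted p = 0.0685) or with the sum of Slc17a7 and Camk2a as one (-0.80, adjusted p = 0.0790).

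Other genes moved in the microglial nuclei. C1qa was at 288 CPM in WT controls and 590.1 in the 3xTg-AD alcohol group (0.92, adjusted p = 0.00313), and C1qb was also higher (0.76, adjusted p = 0.0311). These were the only 2 called of 9 microglia markers tested there, and 4 of the 9 were below zero. Slc1a3, the astrocyte glutamate transporter, was at 946 CPM in WT controls, 1385 in the WT alcohol group, 163 in 3xTg-AD controls and 234 in the 3xTg-AD alcohol group (-2.003, adjusted p = 1.84e-12). It was the only one of 3 astrocyte markers tested there to pass. The 9 astrocyte markers, Slc1a3 among them, summed to 1512 to 2170 CPM in WT controls (mean 1964). In the 3xTg-AD alcohol group the sum was 1046 to 1552 CPM (mean 1237), and nearly all of the difference in means lay in Slc1a3. Slc17a7 and Camk2a summed to 814 to 1668 CPM in WT controls and 889 to 1079.9 in the 3xTg-AD alcohol group. With the sum of Slc17a7 and Camk2a as a covariate, Itpr2 was at -0.89 (adjusted p = 0.180) and Ryr2 at -0.94 (adjusted p = 0.270), neither past the threshold. The part of the other differences in these values was not tested.

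**Figure D3:**
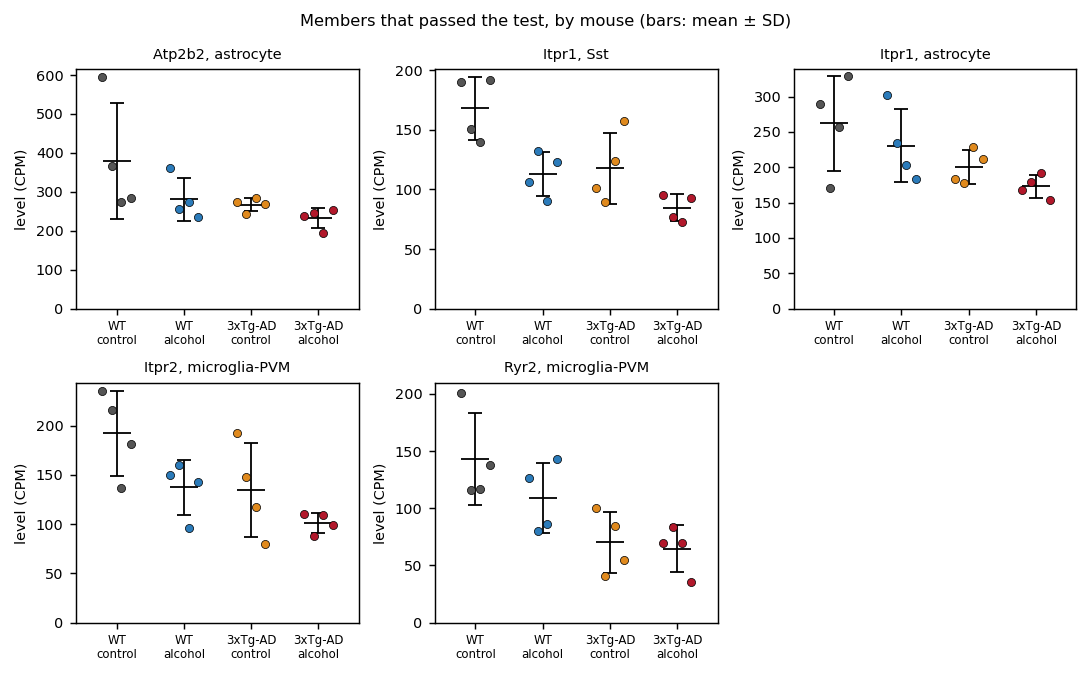
CPM per mouse (points) with mean ± SD (n = 4 mice per group) for the 5 tests that passed in the 3xTg-AD alcohol group against WT controls. The 3xTg-AD alcohol points lie below all WT control points except for Itpr1 in astrocytes, where WT control mouse 27 is at 171 CPM, and WT control mouse 26 at 595 CPM stands apart for Atp2b2 in astrocytes.

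The other comparisons gave few member calls. No member was called by edgeR or DESeq2 in 3xTg-AD controls against WT controls (0.193% of all tests called by edgeR). There, 17 tests had an unadjusted p under 0.05 (13.8%, against 6.53% of all tests), all lower. Below zero were 75.6% of values, against 50.3% over all genes. None was called by either tool in the WT alcohol group against WT controls (0.0352% of all tests). An unadjusted p under 0.05 was reached by 6 tests (4.88%, against 9.13% of all tests). Versus 3xTg-AD controls (0.185%) and versus the WT alcohol group (0.415%), the 3xTg-AD alcohol group also had no member called by either tool. Versus 3xTg-AD controls, 8 tests had an unadjusted p under 0.05 (6.5%, against 8.44% of all tests), 5 of them lower. Versus the WT alcohol group, 16 tests did (13.01%, against 8.85% of all tests), all lower. Below zero were 71.5% and 75.6% of values in these comparisons, against 49.98% and 50.1% over all genes. Ryr2 in microglia was the 1 member called by edgeR for 3xTg-AD versus WT mice averaged over treatment, 0.813% of the members' tests against 1.05% of all tests. In that comparison, 29 tests had an unadjusted p under 0.05 (23.6%, against 10.6% of all tests), 27 of them lower. Values below zero made up 77.2%, against 50.4% over all genes. Alcohol averaged over genotype (0.792% of all tests) gave 0 calls by edgeR and by DESeq2, with a smallest adjusted p of 0.0791. Its 17 unadjusted p under 0.05 (13.8%) were near the share over all tests (13.2%). The interaction of genotype and alcohol gave 0 calls by either tool (0.000859% of all tests), with a smallest adjusted p of 0.900. It had 2 unadjusted p under 0.05 (1.63%, against 4.27% of all tests). No difference in the effect of alcohol between genotypes was detected for any member.

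Atp2b2 came close in other types. In L6 IT neurons, WT control mice ranged from 360.2 CPM in mouse 36 to 716 in mouse 26, and the 3xTg-AD alcohol group were at 304, 349, 361 and 379. The ranges overlapped, and the log2 fold change was -0.54 (SE 0.15, adjusted p = 0.0767). Values were -0.50 in L5 ET (adjusted p = 0.105), -0.39 in L2/3 IT (adjusted p = 0.166) and -0.65 in oligodendrocytes (adjusted p = 0.127). Some of these passed in single alternatives, in L6 IT with no filter on low counts (-0.50, adjusted p = 0.0466) and without WT control mouse 36 (-0.67, adjusted p = 0.0145), in oligodendrocytes without WT control mouse 27 (-0.795, adjusted p = 0.0354) or 36 (-0.83, adjusted p = 0.0320), and in microglia without mouse 36 (-0.81, adjusted p = 0.0202). Without mouse 26 the values were smaller, at -0.32 in L6 IT (adjusted p = 0.429), -0.24 in oligodendrocytes (adjusted p = 0.942) and -0.28 in microglia (adjusted p = 0.752). Itpr1 passed in the GABAergic nuclei taken as 1 class (-0.57, adjusted p = 0.0190). For Atp2a2 in microglia, the 3xTg-AD alcohol group were at 350.1, 404, 414 and 444 CPM, all below the WT controls at 449, 465, 488 and 897, but the value of -0.53 did not pass (adjusted p = 0.1765). Atp2b1 in Sncg interneurons was at 277 ± 44.0 CPM against 519 ± 173 (-0.80, adjusted p = 0.216).

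Slc8a1 had values mostly above zero. In Pvalb interneurons, WT control mice were at 237, 239.8, 253 and 294 CPM and the 3xTg-AD alcohol group at 309, 328, 329 and 396. The groups did not overlap, but the log2 fold change of 0.42 did not pass (SE 0.17, adjusted p = 0.263). In the 3xTg-AD alcohol group against 3xTg-AD controls, 14 of 16 types were above zero, 3 with an unadjusted p under 0.05 and a smallest adjusted p of 0.386. Among L2/3 IT neurons of that comparison, 3xTg-AD control mice 21, 13, 14 and 12 were at 189, 190.0, 207 and 268 CPM and 3xTg-AD alcohol mice 4, 33, 34 and 31 at 209, 259.7, 278 and 286. Mouse 12, high in Gm42418, was the 3xTg-AD control that overlapped the exposed mice. With Gm42418 as a covariate, Slc8a1 in L2/3 IT was at 0.42 (adjusted p = 0.0439), and without the 3 libraries Slc8a1 in L5 IT was at 0.48 (adjusted p = 0.0409), against 0.28 (adjusted p = 0.386) and 0.31 (adjusted p = 0.473) with all 16 mice. In this comparison each of these types passed in its own alternative only, and neither passed in the alternative of the other. Ryr3 in L5 IT neurons was at 72.5 ± 11.5 CPM in the 3xTg-AD alcohol group and 55.1 ± 19.5 in WT controls (0.39, adjusted p = 0.389), and Atp2b4 in L5 ET at 145.3 ± 13.99 and 178.4 ± 50.03 (-0.31, adjusted p = 0.510).

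In sums over all nuclei of a mouse, named or not, fewer cells of a type and less RNA per cell cannot be told apart. There, no member was called by edgeR or DESeq2 in the 3xTg-AD alcohol group against WT controls, where edgeR called 4.06% of genes and 2 members had an unadjusted p under 0.05. Atp2b2 was at 356, 435, 443 and 453 CPM in the 3xTg-AD alcohol group and at 454, 492, 563 and 849.5 in WT controls, without overlap (-0.48, SE 0.17, adjusted p = 0.106). WT control mouse 26 was again the highest. Itpr1 was at 242, 260.0, 264 and 272 CPM against 228, 295, 329.8 and 395 (-0.27, adjusted p = 0.282), with mouse 27 the lowest WT control. Atp2a2 was at 363, 378, 379 and 399 CPM against 403, 422, 436 and 545, also without overlap (-0.25, adjusted p = 0.191), Atp2b1 was at -0.17 (adjusted p = 0.446) and Slc8a1 at 0.12 (adjusted p = 0.693). Ryr2 was at -0.20 for alcohol averaged over genotype (adjusted p = 0.154), where 3.3% of genes were called. For genotype averaged over treatment (3.28% of genes called by edgeR), edgeR called 0 members, 3 had an unadjusted p under 0.05, and DESeq2 called 1, Atp2a2.

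**Figure D4:**
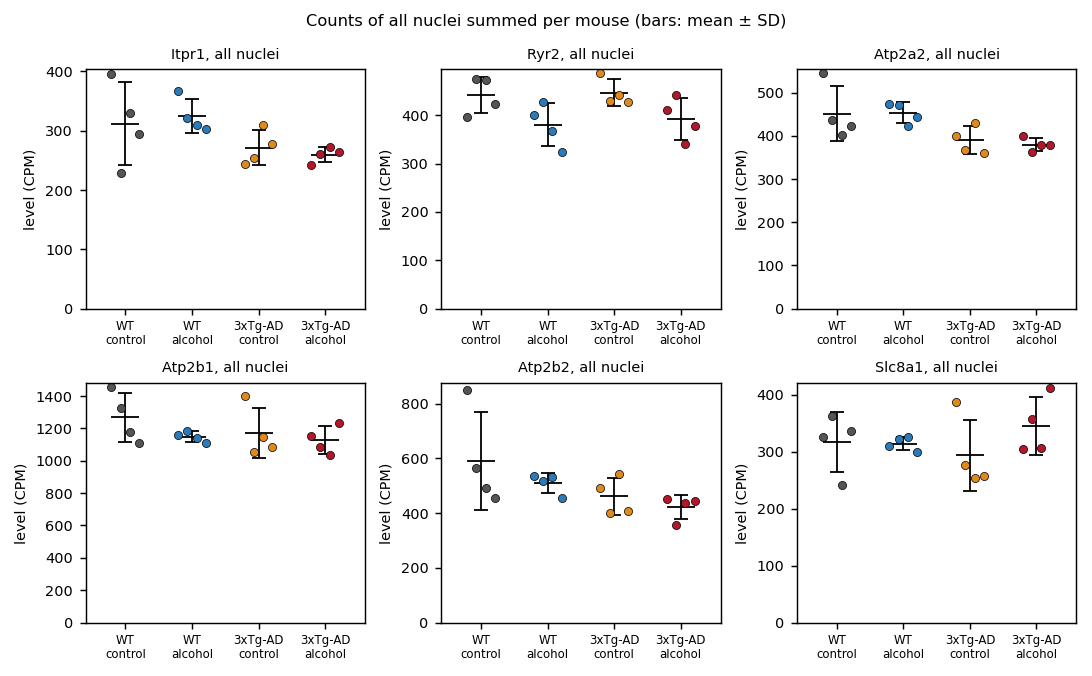
CPM per mouse (points) with mean ± SD (n = 4 mice per group) of 6 members summed over all nuclei. Atp2b2 of the 3xTg-AD alcohol group lies at 356 to 453, below the WT controls at 454 to 849.5, Atp2a2 at 363 to 399 is below WT controls at 403 to 545, and the other 4 members overlap between these groups.

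Beside the members, 70 further genes of calcium stores and transport were followed in 8 lists, of which 58 were tested in at least 1 type, giving 625 tests per comparison. In the 3xTg-AD alcohol group against WT controls 8 tests passed (1.28%, against 1.22% of all tests), for genotype averaged over treatment 11 (1.76%, against 1.05%) and for alcohol averaged over genotype 8 (1.28%, against 0.792%). The exchanger list held 12 of the 31 calls over the 8 comparisons, the pump list 9 and the partners of the release channels 5. In the 3xTg-AD alcohol group against WT controls, 4 of the 71 exchanger tests were called, all lower, against 0.733% of all tests called lower. In 3xTg-AD versus WT mice averaged over treatment 6 of 71 were called, all lower, against 0.546%. These were Slc24a2 and Slc24a3, which encode potassium-dependent sodium/calcium exchangers. The median over the list was -0.18 in the first comparison and -0.16 in the second. The lists were also chosen with earlier results of these data known, so these shares are a description only.

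Slc24a2 decreased in Lamp5 interneurons of 3xTg-AD mice. WT controls were at 151, 277, 305 and 415 CPM, the WT alcohol group at 123, 163, 169 and 273, 3xTg-AD controls at 51.2, 76.7, 99.0 and 139, and the 3xTg-AD alcohol group at 89.6, 134, 145.7 and 152. All 3xTg-AD controls were below all WT controls (-1.67, adjusted p = 0.00139), and averaged over treatment the value was -1.12 (adjusted p = 0.000248). It also decreased averaged over treatment in Sst (-0.63, adjusted p = 0.000628), Pvalb (-0.55, adjusted p = 0.00209) and L4/5 IT (-0.77, adjusted p = 0.0377). Slc24a3 decreased in L5 IT neurons, at 47.3 ± 14.9 CPM in WT controls and 25.7 ± 4.85 in the 3xTg-AD alcohol group (-0.85, adjusted p = 0.0304), and averaged over treatment in L5 IT (-0.71, adjusted p = 0.00863) and L2/3 IT (-0.76, adjusted p = 0.0342). Without WT control mouse 26, the value of 3xTg-AD controls against WT controls for Slc24a2 in Lamp5 was -1.38 (adjusted p = 0.130) and that of Slc24a3 in L5 IT of the 3xTg-AD alcohol group against WT controls was -0.66 (adjusted p = 0.172), neither past the threshold. The calls of Slc24a2 in L4/5 IT and of Slc24a3 in L2/3 IT did not pass without some other single mice. Averaged over treatment, the calls of Slc24a2 in Lamp5, Pvalb and Sst and of Slc24a3 in L5 IT passed in every alternative run. These alternatives included the one without the 3 libraries high in Gm42418. The calls of Slc24a2 for 3xTg-AD controls against WT controls, in Lamp5 and in Pvalb, each passed in 20 of 24 alternatives.

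Of the pumps beside the members, Atp2c1, the calcium and manganese pump of the Golgi apparatus, decreased in L5/6 NP neurons of 3xTg-AD mice. WT controls were at 273, 294, 353 and 396 CPM, the WT alcohol group at 304, 398, 401 and 408, 3xTg-AD controls at 182, 186, 210.5 and 256, and the 3xTg-AD alcohol group at 210.2, 226, 226 and 268. No 3xTg-AD mouse reached any WT mouse (-0.69 averaged over treatment, adjusted p = 0.000300). With alcohol, averaged over genotype, Atp2c1 increased in L6 IT (0.45, adjusted p = 0.0336), L6 CT (0.42, adjusted p = 0.0441) and L2/3 IT (0.36, adjusted p = 0.0426). Bsg, which encodes basigin, a membrane partner of PMCA pumps, increased with alcohol in Sst (0.66, adjusted p = 0.0191), and in the 3xTg-AD alcohol group against WT controls in L4/5 IT (0.55, adjusted p = 0.0427) and endothelial nuclei (0.73, adjusted p = 0.0486). The Atp2c1 call for genotype in L5/6 NP was kept in every alternative run, whereas those of Atp2c1 with alcohol and of Bsg did not pass without some single mice, and without WT control mouse 26 Bsg in Sst was at 0.61 (adjusted p = 0.0510).

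Of the partners of the release channels, Homer1, a scaffold that ties IP3 receptors to glutamate receptors and whose short form is induced by activity, decreased with alcohol averaged over genotype in 4 glutamatergic types. In L6 IT neurons, WT controls were at 176, 236, 253 and 292 CPM and the WT alcohol group at 135, 145, 149 and 169. There, 3xTg-AD controls were at 188, 282, 289 and 289.9 CPM and the 3xTg-AD alcohol group at 128, 155, 176 and 221. The value was -0.64 in L6 IT (adjusted p = 0.00600), -0.65 in L2/3 IT (adjusted p = 0.0446), -0.69 in L4/5 IT (adjusted p = 0.0409) and -0.57 in L5 ET (adjusted p = 0.0473). The L6 IT call was kept without each mouse and without the 3 libraries high in Gm42418 (-0.50, adjusted p = 0.0301), but not with Gm42418 as a covariate (-0.47, adjusted p = 0.0685), and the other 3 did not pass without some single mice. Jph4, a junctophilin that holds the store near the plasma membrane, was lower in OPC of the 3xTg-AD alcohol group than of the WT alcohol group (-1.10, adjusted p = 0.0432). WT controls (44.9 to 130.5 CPM) and 3xTg-AD controls (62.2 to 135.5) overlapped there, and the call was lost in 11 of 25 alternatives.

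Among the genes that make and remove IP3, Plcb4, a phospholipase C, decreased in the 3xTg-AD alcohol group against WT controls in L2/3 IT (-0.96, adjusted p = 0.0346) and microglia (-1.50, adjusted p = 0.0430), neither of which passed without WT control mouse 26 (-0.70, adjusted p = 0.0966, and -1.17, adjusted p = 0.452). Of the calcium-binding proteins, Pvalb (parvalbumin) decreased in L5 IT of 3xTg-AD mice averaged over treatment (-1.27, adjusted p = 0.0381), a type that should hold little of it, at 0.569 to 18.6 CPM per mouse, and the call was lost in 11 of 23 alternatives. Calb1 (calbindin) in L2/3 IT (-0.33, adjusted p = 0.0467, and -0.30, adjusted p = 0.127, without the 3 libraries high in Gm42418) was also called for genotype, and it was named after its values were seen. The lists of store-operated entry (7 genes) and of the mitochondrial uniporter (8 genes, 7 tested) had 0 calls by edgeR and by DESeq2 in every comparison, with up to 7 and up to 8 unadjusted p under 0.05.

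Without the 3 libraries high in Gm42418, which left fewer control mice, 11 of the 29 calls of the 8 named genes passed. For alcohol averaged over genotype, Homer1 was then at -0.45 in L2/3 IT (adjusted p = 0.140), -0.56 in L4/5 IT (adjusted p = 0.188) and -0.37 in L5 ET (adjusted p = 0.165). Atp2c1 was at 0.43 in L6 IT (adjusted p = 0.0513) and 0.39 in L6 CT (adjusted p = 0.0535) but passed in L2/3 IT (0.41, adjusted p = 0.0221), and Bsg was at 0.50 in Sst (adjusted p = 0.187). For genotype averaged over treatment, Pvalb in L5 IT was at -0.89 (adjusted p = 0.203), Slc24a3 in L2/3 IT at -0.80 (adjusted p = 0.0505) and Atp2c1 in L2/3 IT at -0.33 (adjusted p = 0.0956, against -0.35 and adjusted p = 0.0433 with all mice), while Slc24a2 in L4/5 IT passed (-0.69, adjusted p = 0.00802).

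In the 3xTg-AD alcohol group against WT controls, the calls that did not pass without these libraries were Plcb4 in L2/3 IT (-0.72, adjusted p = 0.159) and microglia (adjusted p = 0.509), Slc24a3 in L5 IT (-0.66, adjusted p = 0.173), Bsg in L4/5 IT (0.54, adjusted p = 0.125) and Slc24a2 in Lamp5 (-0.71, adjusted p = 0.562). Slc24a2 in L6 CT was at -0.48 (adjusted p = 0.225, against -0.82 and adjusted p = 0.0419 with all mice) and in astrocytes at -0.65 (adjusted p = 0.2625, against -1.23 and adjusted p = 0.0446). Bsg in endothelial nuclei passed (0.86, adjusted p = 0.0457). In 3xTg-AD controls against WT controls, Slc24a2 was at -1.43 in Lamp5 (adjusted p = 0.565) and -0.58 in Pvalb (adjusted p = 0.285, against -0.75 and adjusted p = 0.0115 with all mice). Jph4 in OPC passed between the alcohol groups (-1.09, adjusted p = 0.0255), as did Atp2c1 in L5/6 NP (-0.70, adjusted p = 0.0158).

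With the sum of Slc17a7 and Camk2a as a covariate, 6 of the 11 calls of these genes outside the glutamatergic types passed, all of them Slc24a2 in Lamp5, Pvalb and Sst. Those of Jph4 in OPC (-1.04, adjusted p = 0.0746), Bsg in Sst (0.56, adjusted p = 0.264) and endothelial nuclei (0.71, adjusted p = 0.113), Slc24a2 in astrocytes (-1.29, adjusted p = 0.0585) and Plcb4 in microglia (-1.28, adjusted p = 0.319) did not.

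**Figure D5:**
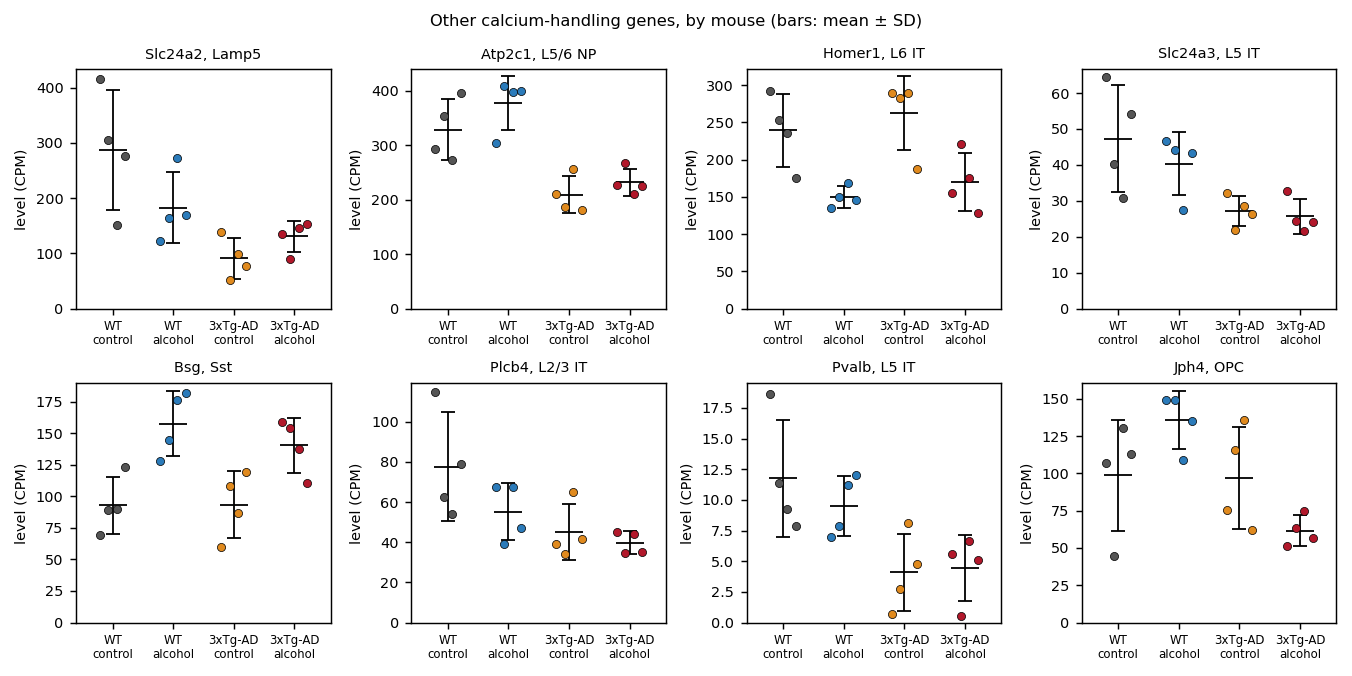
CPM per mouse (points) with mean ± SD (n = 4 mice per group) of 8 other calcium genes, each in 1 cell type where it was called. Slc24a2 in Lamp5 is lower on average in both 3xTg-AD groups than in WT controls, though 3xTg-AD alcohol mouse 34 (152.5) is above WT control mouse 28 (151.4). Atp2c1 in L5/6 NP is lower in every 3xTg-AD mouse than in every WT control. Homer1 in L6 IT is lower in both groups exposed to alcohol than in their controls on average.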

How the data were processed

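The authors prepared nuclei from snap-frozen prefrontal cortex and sequenced them with the 10x Genomics 3' v3.1 chemistry. The submitters' processing notes name Cell Ranger 6.1.1, STAR and mm10. Whether intronic reads were counted is not given in the sources used here. The deposited table held raw UMI counts, whole numbers per gene and nucleus, for 19999 genes and 114512 nuclei of 16 mice, without cell types.

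Nuclei were clustered with scanpy 1.11.5 (2000 variable genes without the 9 members, 30 principal components, 20 neighbors, Leiden resolution 3.0, then 1.5 within classes), and clusters of at least 50 nuclei were named from at least 3 markers raised 1.5-fold. These settings were tuned after the clusters' markers were seen. No doublet caller was run, and an alternative left out the 5% of nuclei with the most UMIs in each mouse. Counts were summed per mouse and type (at least 10 nuclei per mouse, at least 3 mice per group, 17 types) and tested in one fit of the 4 groups with edgeR 4.0.16 (quasi-likelihood, TMM, filterByExpr, R 4.3.3) in 8 contrasts, with Benjamini-Hochberg adjustment per type and contrast. DESeq2 1.42.0 was an alternative. CPM were computed from the same sums and TMM-scaled library sizes, and fold changes are log2. Each mouse was 1 sample, and depth per mouse is given with the results.

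The text names the members, the 8 other calcium genes called most often, and for each member the 3 genes nearest in mean log2 CPM over types among those with at least 20 CPM in at least 1 type. Members and lists were chosen with earlier results of these data known. A pair of further alternatives, the covariate of the summed Slc17a7 and Camk2a CPM and the fits within clusters, were chosen after seeing the data. On simulated counts for L2/3 IT in 3xTg-AD alcohol versus WT control (12385 genes), 86% of 200 genes changed 2-fold were recovered, with 2 unchanged genes called. The changed genes were drawn from those above a limit on mean counts, in the named type with the most nuclei. The rate therefore does not describe tests on few UMIs, as in Sst or microglia. Some results of these comparisons, and a similar gene of Ryr2, are not reported here.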

Additional observations from a re-analysis of the deposited data

Results flagged for a closer look

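In 5 of 108 groups of 4 mice examined, 1 mouse stood apart from the other 3 by Dixon's test. Chance alone gives about 1 in 20 such groups. Atp2a2 in microglia was 896.61 CPM in WT control mouse 26, against 448.61 to 488.13 in the other WT controls; this mouse was also high in Gm42418. Slc8a1 in Pvalb interneurons was 416.89 CPM in WT alcohol mouse 7, against 267.88 to 277.66 in the others. Atp2c1 in L5/6 NP was 304.21 CPM in WT alcohol mouse 6, against 398.28 to 408.19. Homer1 in L6 IT was 187.66 CPM in 3xTg-AD control mouse 21, against 281.98 to 289.9. Slc24a3 in L5 IT was 27.416 CPM in WT alcohol mouse 17, against 43.358 to 46.508.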

How the results depend on the processing

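All 6 member calls kept their sign in every alternative run. The number of member calls in the 3xTg-AD alcohol group against WT controls, 5, was 2 with DESeq2, 2 with Gm42418 as a covariate, 3 with nuclei of at least 500 genes and at most 5% mitochondrial UMIs, 2 without the 3 libraries high in Gm42418, and 1 to 5 with each mouse left out. Versus 3xTg-AD controls, 0 became 1 with the covariate and 1 without the 3 libraries (Slc8a1, named after its values were seen). Averaged over treatment, 1 for genotype became 2 with DESeq2, 2 with no filter on low counts and 2 without the 3 libraries, stayed at 1 with the covariate though the gene changed (Itpr1 in astrocytes, -0.46, adjusted p = 0.0332, in place of Ryr2 in microglia), and 0 to 4 with each mouse left out. Averaged over genotype, 0 for alcohol became 1 with the covariate. In the other comparisons it was 0 to 0 with each mouse left out.

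The number of calls among the other calcium genes varied more. For the 3xTg-AD alcohol group against WT controls, 8 became 2 with the covariate, 13 without the filter, 1 without the 3 libraries and 0 to 14 with each mouse left out. For 3xTg-AD controls against WT controls, 2 became 1 with DESeq2, the covariate or broad classes, 5 without the filter, 0 without the 3 libraries and 0 to 5 with each mouse left out. For the WT alcohol group against WT controls, 0 became 2 with DESeq2, 1 without the filter and 0 to 2 with each mouse left out. For the 3xTg-AD alcohol group, 0 versus 3xTg-AD controls became 2 without the filter, and 2 versus the WT alcohol group became 1 with DESeq2, 4 with the covariate, 4 without the 3 libraries, 1 without the nuclei of most UMIs and 0 to 2 with each mouse left out. Averaged over treatment, 11 for genotype became 4 in broad classes, 18 without the filter and 6 to 15 with each mouse left out. Averaged over genotype, 8 for alcohol became 14 with DESeq2, 3 with the covariate, 5 in broad classes, 4 without the 3 libraries and 1 to 12 with each mouse left out. The cause was not tested.

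The type with the highest level was the same for 8 to 9 of the 9 members with each mouse left out, Atp2b2 being the exception. Itpr1, Itpr2 and Ryr2 rested on few UMIs per mouse in Sst and microglia, which limits the precision there. The labels name no batch. No paired analysis was possible because the mouse numbers are unique and the groups share none.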

Other observations

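Summed over all nuclei, other calcium genes were called by edgeR. Slc24a3, the potassium-dependent exchanger, decreased in the 3xTg-AD alcohol group against WT controls (-0.71, adjusted p = 0.0114), versus the WT alcohol group (-0.67, adjusted p = 0.0291) and in 3xTg-AD versus WT mice averaged over treatment (-0.57, adjusted p = 0.00400). Atp2b3, the PMCA gene that is not among the members, decreased in the first of these comparisons (-0.48, adjusted p = 0.0454) and averaged over treatment (-0.36, adjusted p = 0.0399). With alcohol averaged over genotype, Homer1 (-0.56, adjusted p = 0.0359), Plcg1, a phospholipase C (-0.34, adjusted p = 0.0432), and Atp2a1, the SERCA1 pump of muscle (-0.997, adjusted p = 0.0482), decreased. Pvalb decreased in 3xTg-AD mice averaged over treatment (-0.93, adjusted p = 0.0383). Without the 3 libraries high in Gm42418, Slc24a3 (-0.55, adjusted p = 0.0337, -0.66, adjusted p = 0.00658, and -0.54, adjusted p = 0.00464) and Atp2b3 (-0.4985, adjusted p = 0.0467, and -0.38, adjusted p = 0.0335) passed in the same comparisons. Homer1 (-0.40, adjusted p = 0.114), Plcg1 (-0.28, adjusted p = 0.0831), Atp2a1 (-1.06, adjusted p = 0.0620) and Pvalb (-0.60, adjusted p = 0.156) did not. Atp2b3, Plcg1 and Atp2a1 were named after their values were seen.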
